A study of Mus musculus with 10 samples.

Results

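Tfrc encodes the transferrin receptor, the cell surface protein through which most cells take up iron bound to transferrin. It was measured by 1 probe, annotated in the array files to the RefSeq transcript of this gene and chosen by that probe's name, out of 59709 probes on the array, of which 116 could be given 1 of 112 gene symbols. The probe was picked for description because of its values on these arrays, so all of its levels and differences below are given as descriptions, with errors and without p-values. Each array carried the probe in 20 spots, and every one of these spots was well above background on all 10 arrays.

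The arrays compared white fat from wild-type, chow-fed mice given CL316,243, brown fat from saline-injected mice of the same genotype and diet, white fat from such saline-injected mice, and brown adipocytes in culture. CL316,243, called CL here, is a drug that activates the β3-adrenergic receptor and so stimulates lipolysis and heat production in fat. It was injected into the peritoneum daily for 7 days at 1 mg/kg, with saline as the vehicle. There were 2 arrays for each of the 3 tissue groups, called biological replicates in the labels, and 1 array each for cells at days 0, 3, 5 and 7 of differentiation. The labels do not say which white depot was taken, how old the mice were, whether mice were pooled, or from which mice or line the cells came. SDs over 2 such arrays measure only the spread between these samples, which may be technical. The limma standard errors given below also draw on the variance of the other probes.

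The receptor carries iron-loaded transferrin into the cell by endocytosis, where iron is released in an acidified compartment and the receptor returns to the surface. Its mRNA is stabilised when iron is scarce, through the binding of iron regulatory proteins to iron-responsive elements in the 3′ untranslated region, and it is abundant in dividing cells and in red cell precursors. Brown fat is rich in mitochondria, which use iron for haem and for iron-sulphur clusters. On this array the probe was printed in the same block as probes for genes often used as references, and Tfrc itself is sometimes used as one.

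The gene lies on mouse chromosome 16. The ACGTG core, which hypoxia-inducible factors are known to bind, was searched on both strands of the 2 start-site windows that RefSeq lists for Tfrc, each from 250 bases before to 50 after a start. It is shown here because the human gene is known to respond to hypoxia through such an element. The windows overlap, and both hold the same single match. Its first base lies 2 bases before the first start, which the core overlaps, and 228 before the second. The stretch around it is chr16:32608882-32608910 on the forward strand of GRCm38.p6. The stretch reads as follows, with the core in capitals.
Tfrc start region: ctcggtaggtgtACGTGcggaaggaagtg
The same core occurs in 19.6% of the 32851 mouse windows of this length, and the arrays measured no binding there, so the match is a description only.

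Levels are log2 processed signal, averaged over the 20 spots, minus the 75th percentile of all probes on the same array. A level of 0 is that percentile, and a difference of 1 is 2-fold. Tfrc stood at 5.96 and 6.35 in CL-treated white fat, at 6.07 and 6.43 in saline brown fat, and at 5.20 and 5.40 in saline white fat. In the cells it stood at 6.88 on day 0, 7.46 on day 3, 8.02 on day 5 and 8.04 on day 7. Saline white fat was therefore the lowest group, brown fat and CL-treated white fat overlapped above it, and all 4 cell arrays lay above every tissue array. Brown fat and CL-treated white fat were 0.10 apart with replicate SDs of 0.25 and 0.28, and days 5 and 7 were 0.02 apart, less than the SD over spots of either array, so neither pair of neighbours differed beyond its spread. The other neighbouring levels were 0.56 to 0.86 apart. Of these only the step of 0.86, from saline to CL-treated white fat, can be set beside the replicate SD of 0.23 pooled over the 3 tissue pairs. The rest each involve a cell array, for which no replicate spread was measured.

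**Figure D1:**
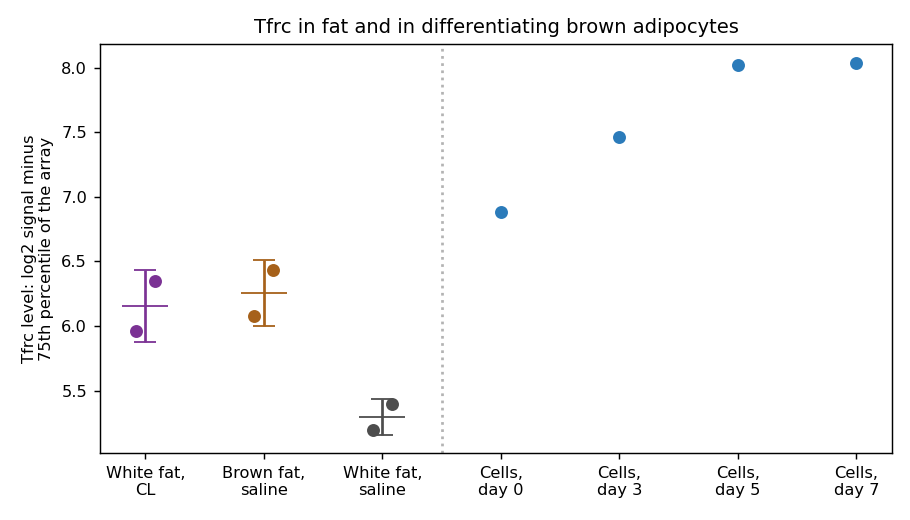
Tfrc level on each array (points; log2 signal minus the array's 75th percentile), with the mean and SD for the 3 tissue groups of 2 arrays and single points for the 4 days of culture. Saline white fat lies lowest, at 5.20 and 5.40, and the cells lie between 6.88 and 8.04.

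The 20 spots give the technical spread within an array. Before scaling, the median spot signal was 36465 and 19081 in CL-treated white fat, 14105 and 23830 in brown fat, and 11672 and 14397 in saline white fat. It was 39719, 67071, 108302 and 91143 at days 0, 3, 5 and 7. The coefficient of variation over spots was 4.46% to 10.9%, and the brightest spot of an array was 1.16 to 1.40 times its dimmest. None of the 200 spots was saturated, and 1 spot, on the day 3 array, had an outlier flag and was left out. The probe was therefore read far above the local background, whose median beside its spots was 21.2 to 26 on the 10 arrays. Unscaled, the first CL array was the brightest tissue array for Tfrc. After scaling it was the lower of the CL pair, because the 75th percentile of its probes was also the highest of the 10 arrays (signal 585, against 235 on the other CL array). The replicate pairs of the scaled values were 0.39 apart in CL-treated white fat, 0.36 in brown fat and 0.20 in saline white fat, against an SD over spots of 0.064 to 0.156 on the log2 scale. As SDs, the replicate pairs spread by 0.28, 0.25 and 0.14 in the same order. Each exceeded the SDs of single spots on its own arrays, which were 0.113 and 0.078 in saline white fat. A level is a mean over 20 spots, so single-spot SDs overstate its spot error.

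**Figure D2:**
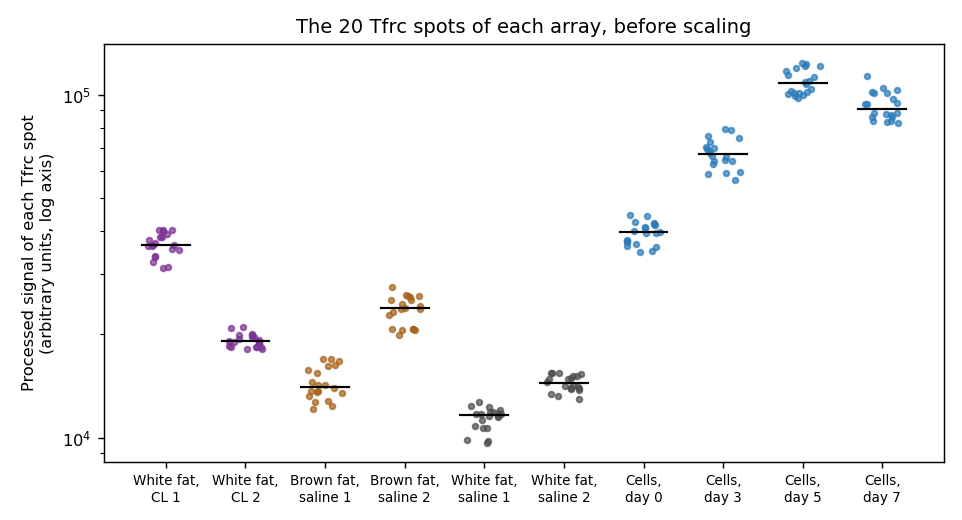
Processed signal of each of the 20 Tfrc spots on each array before any scaling (log axis, arbitrary units), with the median as a bar. The spots of an array lie close together, at 4.46% to 10.9% variation, while replicate arrays differ by more.

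After 7 days of CL, white fat held more Tfrc signal than after saline. Tfrc averaged 6.16 ± 0.28 in CL-treated white fat and 5.30 ± 0.14 in saline white fat (SD, n = 2 each). Neither CL array overlapped a saline array. The log2 difference was 0.86 with a limma standard error of 0.37, which is 1.81-fold. With only these 2 groups in the fit the standard error was 0.45. Each of the 4 pairings of a CL array with a saline array was positive, from 0.56 to 1.15, and all 20 spot positions gave a difference of 0.76 to 0.98. Tfrc missed 2-fold in this comparison, where 2.45% of 43480 probes were at least 2-fold higher after CL. A difference at least as large as that of Tfrc in its direction was seen for 3.85% of probes, beside a median of -0.08 over all of them. The CL arrays agreed less well over all probes than the other pairs, with r = 0.939 and 35.0% of probes at least 2-fold apart, so every comparison with CL rests on a wide pair. In the position code of the file headers, the first number was 2 for CL arrays and 1 for saline arrays. An effect of slide position cannot be told apart from one of CL.

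Brown fat also carried more Tfrc signal than white fat after saline. The level was 6.25 ± 0.25 in brown fat and 5.30 ± 0.14 in white fat (SD, n = 2 each), and the groups did not overlap. The log2 difference was 0.96 with a limma standard error of 0.37, which is 1.94-fold. That error is shared by the 3 tissue groups, and with only these 2 groups in the fit it was 0.26. The 4 pairings of single arrays ran from 0.68 to 1.24, and the 20 spot positions from 0.85 to 1.13. In this comparison 13.6% of 43451 probes were at least 2-fold higher in brown fat and 14.3% were at least as far above white fat as Tfrc, so its difference was a moderate one among those that separate the tissues. The second number of the position code was 1 and 2 for brown fat arrays and 3 and 4 for saline white fat arrays. Slide position therefore cannot be told apart from tissue. Before scaling the brown-white difference was 0.52, and the dimmer brown fat array was level with the brighter white fat array, since the 75th percentile was at a signal of 213 and 271 on the brown fat arrays and 309 and 342 on the white fat arrays. Scaled to the median level of the other 14 probes printed in 20 spots on each array, the brown-white difference was 1.55. In whole tissue, a lower level can mean fewer cells of a type or less RNA per cell, and these cannot be told apart.

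CL-treated white fat and saline brown fat could not be ordered by Tfrc. The means were 6.16 and 6.25, and the log2 difference was -0.10 with a limma standard error of 0.37. The pairings ran from -0.47 to 0.28, on both sides of 0, so no direction can be given at this precision. In this comparison 11.5% of probes were at least 2-fold lower in CL-treated white fat. The error is too wide to show that the levels are alike. This comparison shares its arrays with the 2 above and adds no independent evidence to them.

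In the cells Tfrc was lowest before differentiation and higher on each later day. The log2 difference from day 0 was 0.58 at day 3, 1.14 at day 5 and 1.15 at day 7, or 1.49-fold, 2.20-fold and 2.23-fold. With 1 array a day there is no replicate check. The 20 spot positions differed from day 0 by 0.47 to 0.77 at day 3, by 1.04 to 1.40 at day 5 and by 1.00 to 1.42 at day 7, which covers spot error only. Tfrc passed 2-fold at days 5 and 7, as did 10.6% and 9.71% of probes in that direction. At day 3, 10.7% of probes were at least 2-fold higher and Tfrc was not among them. From day 3 to day 7 the level was higher by 0.57, a step where 4.37% of probes were at least 2-fold higher, and from day 5 to day 7 it was higher by 0.02. With quantile normalization the step from day 3 to day 7 was 0.15, and scaled to the reference gene probes it was 0.34. Scaled to those probes, the difference of day 3 from day 0 was 1.14. They include Actb, which itself differed by -2.24 at day 3, while the rest of them ran from -0.58 to 0.41. In order of day, the second number of the position code ran from 1 to 4 with the same first number, so day and slide position cannot be told apart. The share of probes well above background was 73.5%, 78.3%, 68.1% and 70.8% at days 0, 3, 5 and 7.

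Cells at day 7 stood 1.78 above saline brown fat on the log2 scale, at 8.04 against 6.25 ± 0.25 (n = 1 and 2), which is 3.44-fold. The day 0 cells were already 0.45 above the highest tissue array. In the comparison of day 7 with brown fat, 21.9% of probes were at least 2-fold higher in the cells. All cell arrays were scanned together and apart from the tissue arrays, so culture and scan cannot be told apart. Day 7 stood above brown fat under every scaling run. The difference ran from 0.39, against the median level of the other 14 probes of its block on each array, to 2.34, with no scaling. Rpl13a (a ribosomal protein), a middle probe by level on the day 7 and brown fat arrays, differed by 2.54. The median of the 14 probe differences, another quantity, was 0.55. The place of day 0 turned with the scaling, and against the median of those 14 probes it lay 1.02 below the highest tissue array.

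The other 14 probes printed in 20 spots show how Tfrc moved beside probes measured with the same number of spots on the same arrays. They include Actb (cytoplasmic actin), Gapdh (a glycolytic enzyme), Ppia (cyclophilin A), B2m (the light chain of MHC class I), Hprt (purine salvage) and Tbp (the TATA-binding protein). Between the means of CL-treated and saline white fat, Tfrc had the highest difference of the 15, at 0.86. The others ran from -0.48 to 0.63 with a median of -0.08. Gk (glycerol kinase) followed Tfrc at 0.63 and Gapdh stood at 0.52. This rank did not hold on the first CL array alone, where G6pd2 was further above saline white fat than Tfrc. G6pd2 stood at 3.51 and 2.03 on the CL arrays, and at 2.5 and 1.87 on the saline white fat arrays. Between brown and white fat, Tfrc at 0.96 ranked below Gk at 2.43 and Gapdh at 1.09, and the median of the others was -0.52. Gusb (a lysosomal glucuronidase) was at the other end at -1.34, and Hprt was at -1.11. Of the 14 others, 10 were below 0 in this scaling and 12 were below Tfrc. The gap between Tfrc and another probe of the same array does not depend on the percentile subtracted, and shows unequal change rather than which of them changed.

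In the cells Tfrc ranked second of the 15 at days 3, 5 and 7 relative to day 0. Only G6pd2, a retrocopy of the glucose-6-phosphate dehydrogenase gene whose probe may also read the parent gene, was higher, at 1.75, 1.70 and 1.56. The median of the other 14 was -0.42, -0.46 and -0.23 on these days. Actb was lowest, at -2.24, -1.80 and -1.16, and Ppia stayed between -0.40 and -0.02. Over the 4 days the level of Tfrc spanned 1.15, the third widest span of the 15 after Actb at 2.24 and G6pd2 at 1.75. Over all 10 arrays it spanned 2.84, beside 3.14 for Rpl13a, where Ppia spanned 1.00, B2m 1.03 and Gapdh 1.28. Within the 6 tissue arrays it spanned 1.24, the eighth widest, where Gapdh spanned 1.28, B2m 1.03 and Ppia 0.99. The wide span over all arrays thus includes the step between tissue and cells, which were scanned apart. These ranks are a description, since Tfrc was chosen with its values known.

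**Figure D3:**
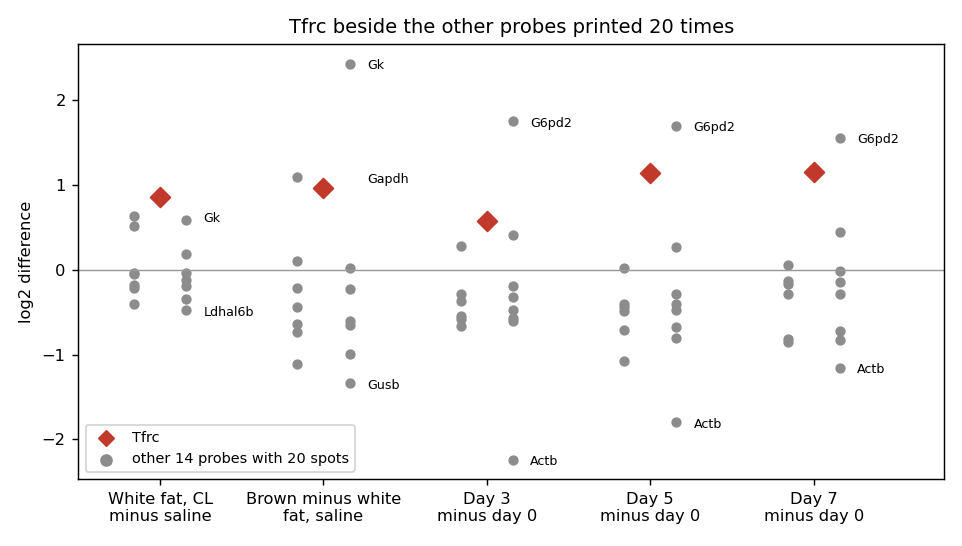
Log2 difference of Tfrc (red diamonds) and of the other 14 probes printed 20 times (grey circles) in 5 comparisons, with the extreme probes named. Tfrc lies highest after CL by group means, at 0.86, though not on the first CL array alone. It lies second to G6pd2 on each day of culture.

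The Tfrc profile differed with the choice of scaling. Tfrc was set against saline white fat under 8 scalings of the arrays, including none and normexp background correction. Day 0 was the lowest of the 4 days under all 8, and both CL arrays lay above both saline white fat arrays under all 8. Both brown fat arrays lay above both white fat arrays under 7 of 8, the exception being unscaled signals. Day 0 lay above every tissue array under 6 of 8, the exceptions being scaling to the reference gene probes and to the median of the other 14 probes of the block. The order of the last 2 days was not settled, since day 5 stood above day 7 under 6 of 8, by up to 0.44 under quantile normalization.

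**Figure D4:**
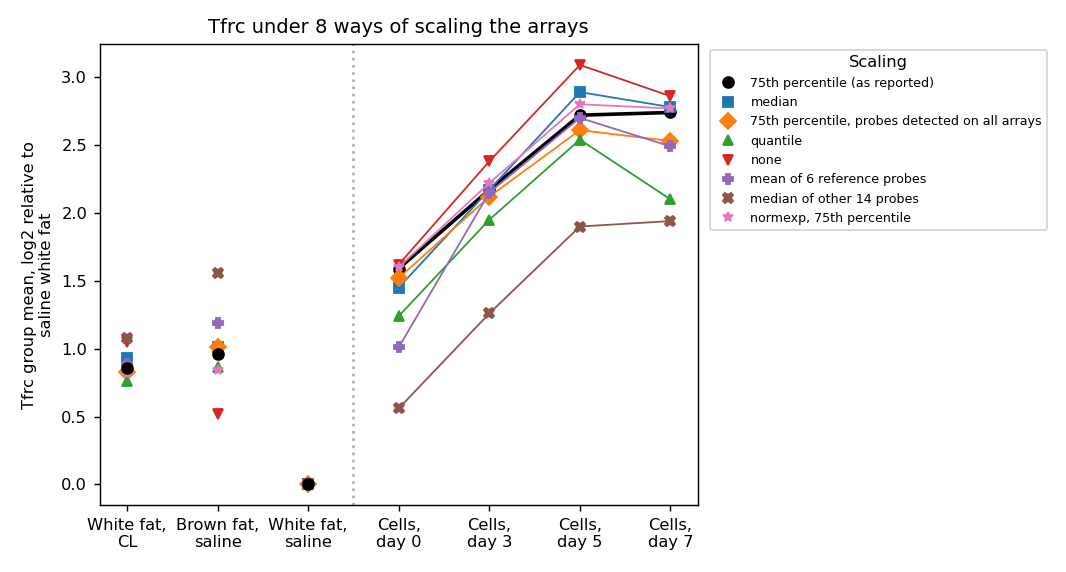
Group mean of Tfrc relative to saline white fat (log2) under 8 scalings, for the tissues (left of the dotted line) and the days of culture (lines, right). The order within the culture up to day 5 is shared by all 8, while the height of the cells over the tissues ranges widely.

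The named transcripts with the most similar profiles were sought next. Likeness was measured as the root mean square difference between log2 profiles over the 10 arrays, each centred on its own mean, among 29477 other probes well above background on every array. A flat profile would lie 0.95 from Tfrc and the median probe lay 0.99 away. Of these probes 371, or 1.26%, lay within 0.5 of Tfrc. Among the 77 with a gene symbol none did, and the 5 nearest were Gm21953 at 0.62, Gapdh at 0.68, Tagap (a GTPase-activating protein of T cells) at 0.69, Rpl13a (a ribosomal protein) at 0.71 and Zf12 at 0.72. Only the first of these was higher at day 7 than at day 0 by a similar amount, 1.13, and Rpl13a differed from day 0 by -0.29. Among the 516 with a GenBank accession and no symbol 5 did, or 0.969%, and a larger pool can be expected to hold nearer profiles. M26332 lay 0.41 away, BY678335 0.42, AK028973 0.44, CF908017 0.49 and DV065013 0.50. BY678335 showed log2 differences of 0.73, 1.62 and 1.35 from day 0 at days 3, 5 and 7, 0.88 between brown and white fat and 0.24 after CL. M26332 differed by 0.85 at day 7, by 0.73 between brown and white fat and by 0.06 after CL. AK028973 differed by 2.25 at day 7, but by 0.12 between brown and white fat and 0.03 after CL. CF908017 and DV065013 differed from day 0 by only -0.02 and 0.03 at day 5, and by 0.54 and 0.18 at day 7. The 10 arrays include 4 of cultured cells and 2 of each tissue group, so the step between tissue and cells can weigh on likeness. How much it weighed was not tested.

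Other genes of iron handling could not be followed by name. None of the 30 listed iron genes, among them the ferritin chains Fth1 and Ftl1, the iron exporter Slc40a1, transferrin itself (Trf) and the iron regulatory proteins Aco1 and Ireb2, was measured under its name, and the 8 listed proliferation genes were not either. Of the 10 listed adipocyte genes only Gk was named, at -1.10 and -1.10 in CL-treated white fat, 0.59 and 0.80 in brown fat, and -1.79 and -1.67 in saline white fat. In the cells Gk differed by -0.14 between days 7 and 0, where Tfrc differed by 1.15. The tissue labels could not be checked against Ucp1, Cidea, Lep or Retn, since no probe carries these names.

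Of the 35 listed markers of brown and white fat and of other cell types, 1 was measured under its name, Ccl21b, a chemokine of lymphatic vessels and lymph nodes with near-identical gene copies. Its level was 6.16 and 7.10 in CL-treated white fat, 4.26 and 5.58 in brown fat, and 7.72 and 7.49 in saline white fat, and -0.85 to -0.50 in the cells. It was thus highest where Tfrc was lowest among the tissues. Its part in the Tfrc differences was not tested, and no erythroid marker was measured under its name.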

How the data were processed

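Total RNA was labelled with Cy3 and hybridised to 10 one-colour Agilent arrays of the Arraystar mouse lncRNA design, per the labels. Per the file headers, spots were read with Agilent Feature Extraction 11.0.1.1, and the deposited intensity columns used here are brightness values (background-subtracted processed signal, median spot and local background signal) with flags of 0 or 1. The submitters' processing notes name version 9.1. The deposited value table holds log2 values for 18997 probes. It lists none of the 15 probes printed in 20 spots, so it was not used for Tfrc. Its normalization is not given in the sources used here.

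Control spots, 1200 spots of 20 negative control probes and spots with an outlier flag were left out. Log2 signals were averaged over spots and the array's 75th percentile was subtracted. Standard errors came from 1 limma 3.58.1 model (R 4.3.3) of the 6 tissue arrays over 43542 probes well above background on both arrays of a tissue group. The model drew the variance of each probe toward that of all probes, with 4.46 prior and 3 residual degrees of freedom. The fit was run on simulated data with planted differences larger than those of Tfrc and less noise than on these arrays. That run does not check the Tfrc standard errors. Comparisons between tissues over all probes used those of the 43542 with a value on every array compared, also where dim in the groups compared. Comparisons with cell arrays used probes well above background on at least 1 array compared. No Tfrc p-value is given. RefSeq accessions gave 116 of 123 probes a symbol (GRCm38.p6 table, used without versions), and 59593 probes stayed without one. The number of arrays limits the precision.

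Members, gene lists and tests were chosen with earlier results of these data known. Named transcripts were Tfrc, the 5 nearest gene symbols and 5 nearest GenBank accessions by profile, the reference genes of the block, and listed iron, proliferation, adipocyte and marker genes measured under their names. Gk, G6pd2, Gusb, Rpl13a and Ldhal6b of the block were named after their values were seen. Alternatives changed the scaling, the background correction (normexp on the median signal, with an offset of 50, as the files used here have no mean signal), the spot summary, the fit and the arrays included.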

Additional observations from a re-analysis of the deposited data

How the results depend on the processing

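The differences of CL-treated from saline white fat, brown from white fat, days 3, 5 and 7 from day 0, day 7 from day 3 and day 7 from brown fat kept their direction under all alternatives run. CL-treated white fat minus brown fat did not, and ran from -0.48 to 0.53 around a reported -0.10. Day 7 minus day 5, reported at 0.02, was below 0 under 6 of 8 scalings, down to -0.44. Day 0 minus the highest tissue array, reported at 0.45, was -0.34 scaled to the reference gene probes and -1.02 scaled to the median of the other 14 probes of the block. A value is listed here when it moved by more than the replicate SD (for the cells, the tissue SD of 0.23). Without scaling, brown minus white fat was 0.52, CL-treated white minus brown fat 0.53, day 5 minus day 0 1.47 and day 7 minus brown fat 2.34. Scaled to the 6 reference gene probes, brown minus white fat was 1.19, days 3, 5 and 7 minus day 0 were 1.14, 1.69 and 1.49, day 7 minus day 3 was 0.34 and day 7 minus brown fat 1.30. A scaling chosen after seeing the data subtracted the median level of the other 14 probes of the block on each array. It gave 1.55 for brown minus white fat and 1.08 for CL-treated minus saline white fat. With it CL-treated white minus brown fat was -0.48 and day 7 minus brown fat 0.39. With quantile normalization, day 7 minus day 0 was 0.86, day 7 minus day 3 was 0.15, and day 7 minus brown fat 1.24, with 71.62% and 28.55% of probes at least as far apart in these last 2, beside 26.72% and 16.76%. Median scaling gave 1.44 for day 5 minus day 0, and the 75th percentile of probes detected on all arrays gave 1.51 for day 7 minus brown fat. The cause of these moves was not tested. Leaving out 1 array at a time gave 0.66 to 1.05 for CL-treated minus saline white fat, 0.78 to 1.14 for brown minus white fat, -0.29 to 0.10 for CL-treated white minus brown fat and 1.60 to 1.96 for day 7 minus brown fat. Replicate numbers are shared between tissue groups, but deviations of same-numbered arrays correlated at -0.02 (brown with saline white fat), -0.08 (brown with CL-treated white fat) and 0.50 (saline with CL-treated white fat). The labels name no litter or batch behind the numbers, and not every pair of groups correlated, so the arrays were not treated as paired. The replicate block left the differences at 0.86, 0.96 and -0.10 with a standard error of 0.35. Fitting only the 2 groups compared also left them there, with standard errors of 0.45, 0.26 and 0.50 in the same order. The value table, which lists no Tfrc probe, was not run. Of the 10 transcripts named for likeness, 7 stayed with quantile normalization, 7 with normexp and 8 with dimmer probes included.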
